A study of Zea mays with 109 samples.

Results

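The RNA that ribosomes carried was compared between young inflorescences and leaves of the maize inbred line B73. The inflorescence libraries were the 1cm Ear, the 5mm Ear, the 1cm Tassel and a library labelled only Inflorescence. The leaf libraries were the base and the tip of the stage 2 leaf (with the letter L, at V5), the first leaf with the letter L and with the letter N, the third leaf and the topmost leaf with the letter L (all at V3), the ear leaf and the husk leaf. V3 and V5 are vegetative stages counted by leaf number, and the labels do not explain the letters L and N. These 12 libraries, 4 of inflorescence and 8 of leaf, were chosen by the tissue names in the labels, out of 20 libraries of ribosome-bound RNA and 109 samples in all. Plants of all groups grew in a greenhouse at 25 °C with days and nights of 12 h each, carried no stated transgene or mutation and had no treatment. The other ribosome-bound libraries, used only for reference, were the SAM at V3 and V4, the primary root at 6 days after sowing and at V1, the internode and the stem at V6, and the embryo and the endosperm at R2. Their paired values are given in this order. Each library mixed equal amounts of RNA from 3 replicates of 5 to 10 plants each. No tissue was sequenced from separate replicates, so the tissues of an organ class served as its samples. The p-values therefore reflect how much tissues of different age and position varied. The tests treat these tissues as independent. Some are closely related, such as the 1cm Ear and the 5mm Ear, or the base and the tip of the stage 2 leaf, so the p-values may be too small.

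In maize the tassel at the shoot tip bears the male flowers and the ear in a leaf axil bears the female flowers. Both grow from inflorescence meristems, groups of dividing cells descended from the shoot apical meristem (SAM), which makes leaves before flowering. A leaf blade is mostly grown cells that fix carbon by C4 photosynthesis, with the base of a growing leaf younger than its tip, and the husk leaves wrap the ear. RNA bound by ribosomes stands for the mRNAs being translated, so it is read as a measure closer to protein synthesis than total RNA. An organ is a mixture of cell types, and in such bulk RNA fewer cells of a type and less RNA per cell cannot be told apart.

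Values were deposited as TPM, a relative abundance of transcripts scaled by gene length, and were available for 39498 gene identifiers. The identifiers are given without gene names, because 0 of them matched the reference table at hand, so roles cannot be given and marker genes of leaf or meristem could not be checked. The gene Zm00001d019605 took up a very unequal part of the libraries and was therefore set aside. Its deposited level was 31.1 TPM in the 1cm Ear, 215 TPM in the 5mm Ear, 367 TPM in the 1cm Tassel and 118 TPM in the library labelled Inflorescence. In leaf its lowest level was 1210 TPM in the husk leaf, the median was 474008 TPM and the highest level was 624752 TPM in the third leaf. It held 27.8% to 62.5% of the TPM in 6 leaf libraries, 1.77% at the base of the stage 2 leaf and 0.121% in the husk leaf. All other genes of each library were rescaled to sum to 1000000, and levels below are these rescaled TPM unless stated. TPM keep no read number, so the depth behind each value is unknown.

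Ribosome-bound RNA was spread more evenly over genes in inflorescence than in leaf. The 10 most abundant genes held 2.77% to 3.61% of the TPM of the inflorescence libraries. In leaf they held 4.32% in the husk leaf, 9.84% at the base of the stage 2 leaf, 13.1% to 16.4% in 5 further libraries and 27.99% in the first leaf with the letter L. Single genes weighed on the leaf values even after the rescaling. In the first leaf with the letter L, Zm00001d038493 had 125628 TPM and Zm00001d023516 had 68287 TPM. The means were 3.23% ± 0.366 (SD, n = 4) and 14.5% ± 6.71 (SD, n = 8), and no leaf library fell within the inflorescence range (two-sided exact permutation test, p = 0.00404, the smallest that 495 splits of 12 libraries allow, and 0.00606 adjusted by Benjamini-Hochberg for 3 such measures). The number of genes that together held 50% of the TPM was 992 in the 1cm Ear, 1046 in the 5mm Ear, 942 in the 1cm Tassel and 1134 in the library labelled Inflorescence. In leaf it ranged from 210 in the first leaf with the letter L to 736 in the first leaf with the letter N and 837 in the husk leaf. The means were 1029 ± 82.2 genes (SD, n = 4) and 438.5 ± 229.5 genes (SD, n = 8), again without overlap (p = 0.00404 by the exact permutation test, adjusted 0.00606). The SAM libraries, at 946 and 1031 genes, the root libraries, at 895 and 1017 genes, and the internode and stem, at 1108 and 1020 genes, all lay above the highest leaf. The embryo library, at 752 genes, lay within the leaf range, and the endosperm library, at 62 genes, lay below every leaf.

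The number of genes with at least 1 rescaled TPM differed less. Inflorescence libraries had 19330 ± 433 such genes (SD, n = 4) and leaf libraries 18319 ± 678 (SD, n = 8), with p = 0.0323 by the exact permutation test and the same value when adjusted. The groups overlapped, since the husk leaf had 19669 genes and the first leaf with the letter N had 18980, against 18947 in the 5mm Ear. The call did not hold without the 1cm Ear (adjusted p = 0.0606 by the exact permutation test), the 1cm Tassel (0.0970) or the library labelled Inflorescence (0.0606). With Zm00001d019605 kept in the deposited TPM the difference of 1011 genes rose to 2790.

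**Figure D1:**
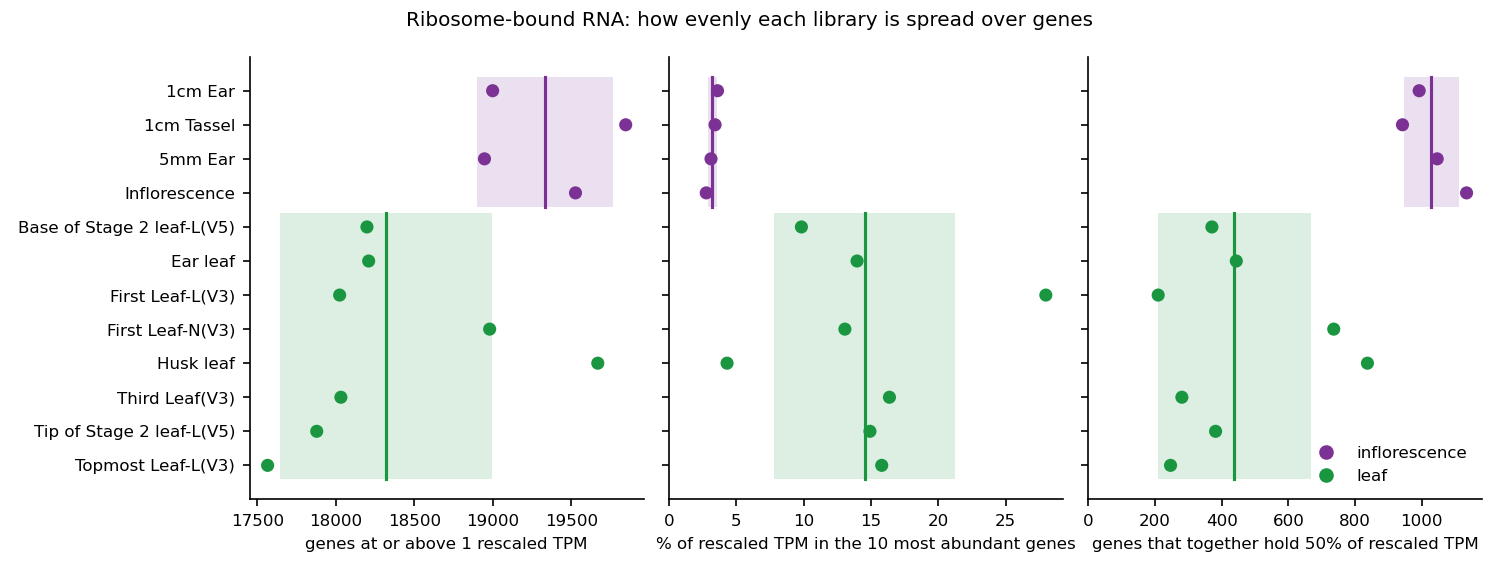
Each point is 1 ribosome-bound library, coloured by organ class. Lines show class means and shading shows 1 SD (n = 4 inflorescence, n = 8 leaf), and the axis of the left panel does not start at 0. The 4 inflorescence libraries lie together at 942 to 1134 genes holding 50% of rescaled TPM, while leaf libraries range from 210 to 837 genes, with the husk leaf nearest to inflorescence.

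Gene by gene, the organs differed throughout the ribosome-bound transcriptome. Of 26357 genes with at least 1 rescaled TPM in at least 2 of the 20 libraries, 13410 (50.9%) differed with an adjusted p under 0.05 and a log2 fold change of at least 1 in size. These tests used limma on log2(rescaled TPM + 1), a scale that understates the change of low genes. Inflorescence was higher for 8975 genes (34.1%), with a median log2 fold change of 1.93, and leaf was higher for 4435 genes (16.8%), with a median of -2.29. Among them 1931 were higher in inflorescence by at least 3 on the log2 scale and 1427 were lower by that much, while past 8 the leaf-high genes were more numerous, 36 against 19. Without the husk leaf, 9466 genes were higher and 4519 lower. The split between the directions moved with the scaling. The median gene tested lay 0.41 higher in inflorescence on the log2 scale as rescaled, 0.06 higher after quantile normalization and 0.07 higher after upper quartile scaling, and with Zm00001d019605 kept it lay 0.90 higher. The higher and lower counts were 6653 and 5587 after quantile normalization, 6677 and 5473 after upper quartile scaling, and 11909 and 2977 with Zm00001d019605 kept.

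Many genes separated the organs in every library. For 7775 of the genes tested (29.5%) all 4 inflorescence libraries lay above all 8 leaf libraries, and for 2909 (11%) all lay below. Of the called genes, 7135 of 8975 higher genes (79.5%) and 2766 of 4435 lower genes (62.4%) had such separate ranges. Without the husk leaf the separate ranges numbered 8833 and 3258. A set of 336 genes had at least 10 TPM in every inflorescence library and under 1 TPM in every leaf library, and 72 genes had the opposite pattern. With the husk leaf left aside these sets held 454 and 139 genes. Leaving out any leaf library can only keep or raise such counts and those of separate ranges. By another criterion, which these sets may also meet, 201 genes had at least 1 TPM in every inflorescence library and were listed at 0 in every leaf library, against 41 genes with the opposite pattern. All counts of separate ranges and of these sets use the rescaled TPM. They are not given for other scalings, with which the split of the calls moved.

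On the rescaled TPM, the only scaling for which this is given, the direction of the calls depended on how abundant a gene was. Among 11696 genes whose mean in the higher organ was 10 to 100 TPM, 43.3% were higher in inflorescence and 19.7% in leaf. Among 2748 genes at 100 to 1000 TPM the shares were 50.2% and 25.9%. Among the 173 genes at 1000 TPM or more the order turned, with 65 genes (37.6%) higher in inflorescence and 79 (45.7%) higher in leaf. As a description of the same calls, genes higher in inflorescence held 64.5% to 68.5% of the TPM of the inflorescence libraries and 10.6% to 27.7% of the leaf libraries. Genes higher in leaf held 3.11% to 4.46% of inflorescence TPM. In leaf they held 25.9% in the husk leaf, 44.7% in the first leaf with the letter N and up to 66.2% in the topmost leaf. Of the 100 most abundant genes of each library, 67 were common to all 4 inflorescence libraries, 11 to all 8 leaf libraries, 16 to the 7 leaf libraries other than the husk leaf, and 5 to all 12 libraries. Adding a library can only keep or lower such a count, so the counts of 4 and 8 libraries are not directly comparable.

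**Figure D2:**
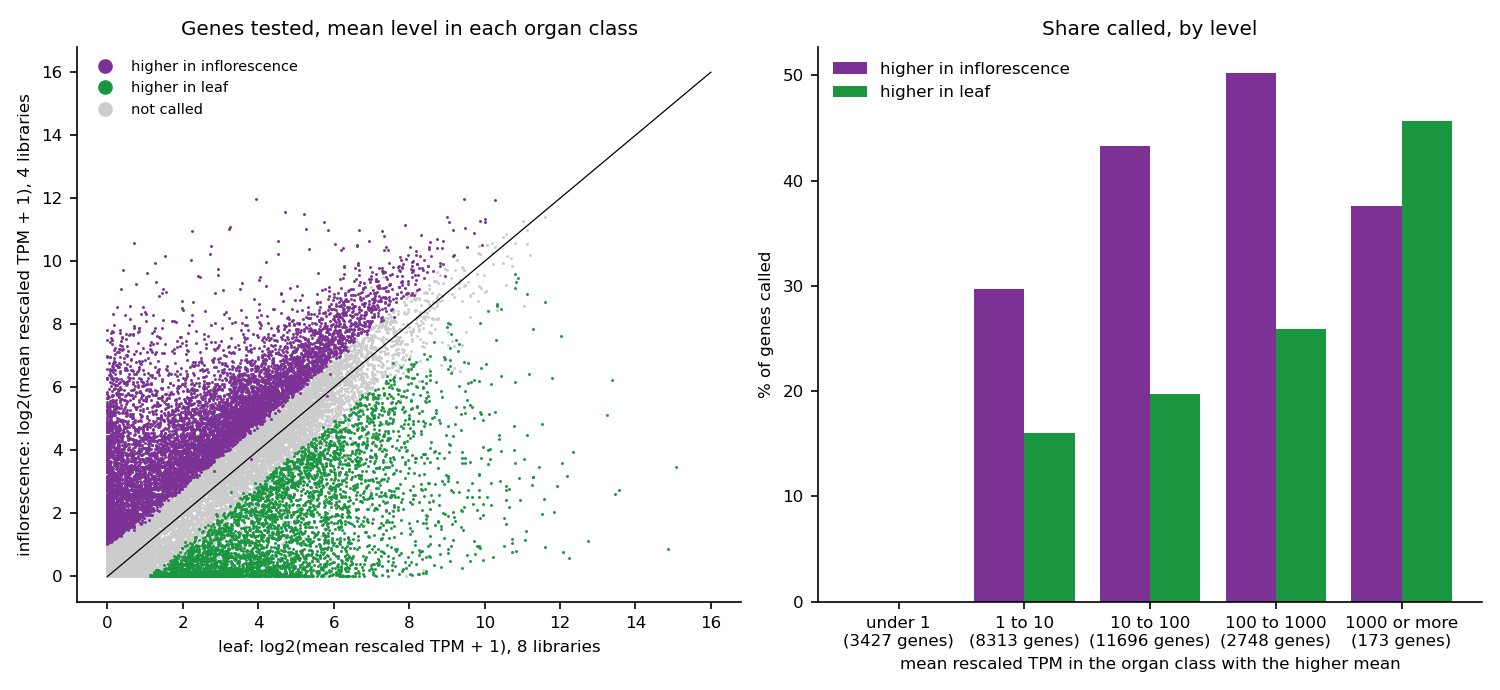
The left panel plots each of the 26357 genes tested by log2(mean rescaled TPM + 1) in leaf (x axis, 8 libraries) and inflorescence (y axis, 4 libraries), coloured by call, with a line at equal levels. The right panel gives the percent of genes called in each direction by the mean level in the higher organ, and shows leaf calls passing inflorescence calls among the 173 genes at 1000 TPM or more (79 against 65).

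The 2 genes with the highest fold change among those with separate ranges were nearly silent in leaf. Zm00001d030698 had 1521 TPM in the 1cm Ear, 1890 TPM in the 5mm Ear, 899 TPM in the 1cm Tassel and 1861 TPM in the library labelled Inflorescence. In leaf its lowest level was 0 TPM, the median was 0.0916 TPM and the highest was 2.25 TPM, in the first leaf with the letter N. All inflorescence libraries thus lay far above all leaf libraries, with the tassel lowest, and the log2 fold change was 9.99 (SE 0.439, limma adjusted p = 3.95e-11). The same gene had 2334 and 3500 TPM in the SAM and 1003 and 258 TPM in the primary root. It had 224 and 76.8 TPM in the internode and stem, 1169 TPM in the embryo and 0.91 TPM in the endosperm.

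Zm00001d040260 had 452 TPM in the 1cm Ear, 481 TPM in the 5mm Ear, 1516 TPM in the 1cm Tassel and 946 TPM in the library labelled Inflorescence. It was listed at 0 in 7 leaf libraries and had 2.55 TPM in the first leaf with the letter N. Here the tassel was the highest library instead of the lowest, no leaf reached the inflorescence range, and the log2 fold change was 9.32 (SE 0.447, limma adjusted p = 9.78e-11). Outside the inflorescence it had 692 and 756 TPM in the SAM and 315 TPM in the embryo, and it was listed at 0 in both root libraries and in the endosperm.

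On the leaf side the largest fold change belonged to Zm00001d023516, which was also the second most abundant leaf-high gene. It was listed at 0 in the 1cm Ear, and had 0.79 TPM in the 5mm Ear, 2.24 TPM in the 1cm Tassel and 0.26 TPM in the library labelled Inflorescence. In leaf its lowest level was 3.14 TPM in the husk leaf, its median 21527 TPM and its highest 68287 TPM in the first leaf with the letter L. The ranges were separate only narrowly, because the husk leaf stood next to the tassel while the other 7 leaves had at least 5978 TPM. The log2 fold change was -12.31 (SE 1.91, limma adjusted p = 4.18e-05), and -13.87 (adjusted p = 1.37e-10) without the husk leaf. In the total RNA of the same tissues this gene was at 0.02 to 0.09 TPM in inflorescence and at 112 to 6247 TPM in leaf.

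Zm00001d048611 was high in every leaf, the husk leaf included. It was listed at 0 in the 1cm Ear, and had 13.01 TPM in the 5mm Ear, 8.42 TPM in the 1cm Tassel and 1.35 TPM in the library labelled Inflorescence. Leaf levels ran from 4179 TPM in the husk leaf through a median of 12974 TPM to 18597 TPM in the first leaf with the letter L. The ranges did not meet, and the log2 fold change was -11.33 (SE 0.620, limma adjusted p = 3.98e-10), or -10.64 (adjusted p = 1.76e-09) without the 1cm Ear. Both root libraries also carried it, at 2366 and 4247 TPM, whereas the SAM had 1.95 and 0.43 TPM.

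Of the most abundant genes higher in inflorescence, Zm00001d002543 had 5450 TPM in the 1cm Ear, 2863 TPM in the 5mm Ear, 4510 TPM in the 1cm Tassel and 3231 TPM in the library labelled Inflorescence. Its leaf levels ran from 0 TPM through a median of 6.94 TPM to 71.1 TPM in the husk leaf. The husk leaf was the highest leaf and still far below the lowest inflorescence library, and the log2 fold change was 9.19 (SE 0.857, limma adjusted p = 1.91e-07). All other organ classes carried it too, from 88.2 TPM in the endosperm to 3092 TPM in SAM(V4).

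Zm00001d014858 was abundant everywhere and differed by degree. It had 3751 TPM in the 1cm Ear, 4412 TPM in the 5mm Ear, 4537 TPM in the 1cm Tassel and 3253 TPM in the library labelled Inflorescence, against 391 TPM at the lowest, 684 TPM at the median and 1136 TPM at the highest in leaf. The groups did not overlap, and the log2 fold change was 2.57 (SE 0.256, limma adjusted p = 4.02e-07). It depended on the scaling, at 3.38 with Zm00001d019605 kept, 3.65 after quantile normalization and 2.05 after upper quartile scaling. The husk leaf, at 815 TPM, lay inside the range of the other leaves for this gene.

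The most abundant leaf-high gene, Zm00001d038493, had 1.66 TPM in the 1cm Ear, 4.29 TPM in the 5mm Ear, 29.1 TPM in the 1cm Tassel and 5.78 TPM in the library labelled Inflorescence. Its leaf levels ran from 80.3 TPM in the husk leaf through a median of 19700 TPM to 125628 TPM in the first leaf with the letter L. Leaf libraries differed far more among themselves than inflorescence libraries did, but none reached down to the tassel, and the log2 fold change was -10.44 (SE 1.44, limma adjusted p = 1.29e-05). It was -11.44 (adjusted p = 4.42e-08) without the husk leaf and -11.12 (adjusted p = 3.42e-05) without the 1cm Tassel. The total RNA table listed this gene at 0 in all 12 of the same tissues.

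**Figure D3:**
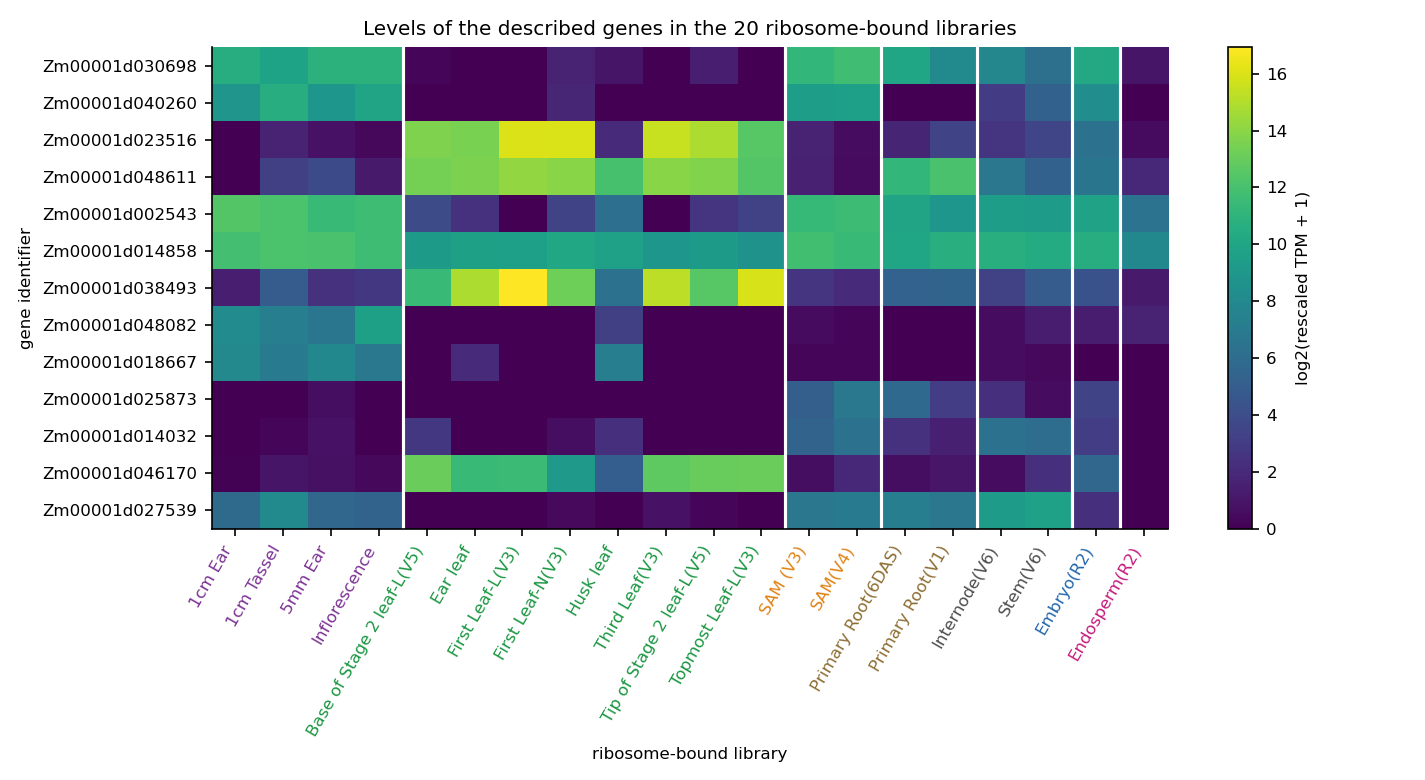
Colour gives log2(rescaled TPM + 1) of the 13 genes described individually (rows) in the 20 ribosome-bound libraries (columns, labels coloured by organ class, white lines between classes). The husk leaf differs from the other leaves for several genes, for example Zm00001d023516 at 3.14 TPM against at least 5978 TPM, and the SAM columns resemble the inflorescence columns except for the 4 genes chosen from the comparison of those classes.

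The leaf class was much less uniform than the inflorescence class. Between pairs of inflorescence libraries, 0.584% (both ears) to 3.09% (1cm Tassel and 5mm Ear) of the genes tested differed at least 4-fold on the log2(rescaled TPM + 1) scale. Between pairs of leaf libraries the share was 3.13% (base and tip of the stage 2 leaf) to 18.7% (husk leaf and topmost leaf), and between an inflorescence and a leaf library it was 19.6% to 35.5%. Spearman's rho across these genes, which are not independent replicates, was 0.942 to 0.975 within inflorescence, 0.776 to 0.927 within leaf and 0.511 to 0.701 between them. The husk leaf had the highest rho with inflorescence of any leaf library, 0.651 to 0.701, and the lowest median with the other leaves, 0.786.

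Each of the 12 libraries was also placed between the organs with genes called without it. A left-out inflorescence library was nearer to the mean of the other inflorescence libraries than to the leaf mean for 94.9% to 97.4% of the inflorescence-high genes and for 89.8% to 99.2% of the leaf-high genes. The 1cm Tassel gave the lowest value of both ranges. A left-out leaf library was on the inflorescence side for 2.06% of the inflorescence-high genes in the third leaf, 10.4% in the ear leaf, 24.2% in the first leaf with the letter N and 33.7% in the husk leaf. For leaf-high genes these shares were 6.67% in the third leaf, 21.8% in the ear leaf, 18.9% in the first leaf with the letter N and 37.9% in the husk leaf. The husk leaf was thus intermediate in both directions, whereas the first leaf with the letter N stood apart mainly in the genes that leaves carried less of.

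Among called genes the tassel and the husk leaf were the library at the edge of its class most often. The 1cm Tassel was the lowest inflorescence library for 4554 of 8975 inflorescence-high genes (50.7%) and the highest for 2014 of 4435 leaf-high genes (45.4%). The husk leaf was the highest leaf for 3794 inflorescence-high genes (42.3%) and the lowest leaf for 1440 leaf-high genes (32.5%). The first leaf with the letter N was the highest leaf for another 2381 inflorescence-high genes (26.5%).

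The libraries of other organs took different places on the same genes. Over the main calls, SAM (V3) and SAM(V4) lay on the inflorescence side for 92.8% and 94.4% of the inflorescence-high genes and for 97.5% and 94.5% of the leaf-high genes. The internode and stem libraries did so for 79.97% and 71.2% of the inflorescence-high genes and for 67.8% and 66.2% of the leaf-high genes. The primary roots were close to the middle in both, at 49.5% and 38.4% and at 53.0% and 47.4%. The embryo joined the inflorescence side for 74.9% and 90.6%, and the endosperm for 24.6% of the inflorescence-high genes but 91.5% of the leaf-high genes. A library with little RNA of a leaf-high gene counts as on the inflorescence side, so such a share need not mean likeness to inflorescence. The endosperm was nearer to the leaf mean for most inflorescence-high genes, although these genes held 30.8% of its TPM, above the share in any leaf. Each of these organ classes had 1 or 2 libraries, and no test was made on these shares.

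**Figure D4:**
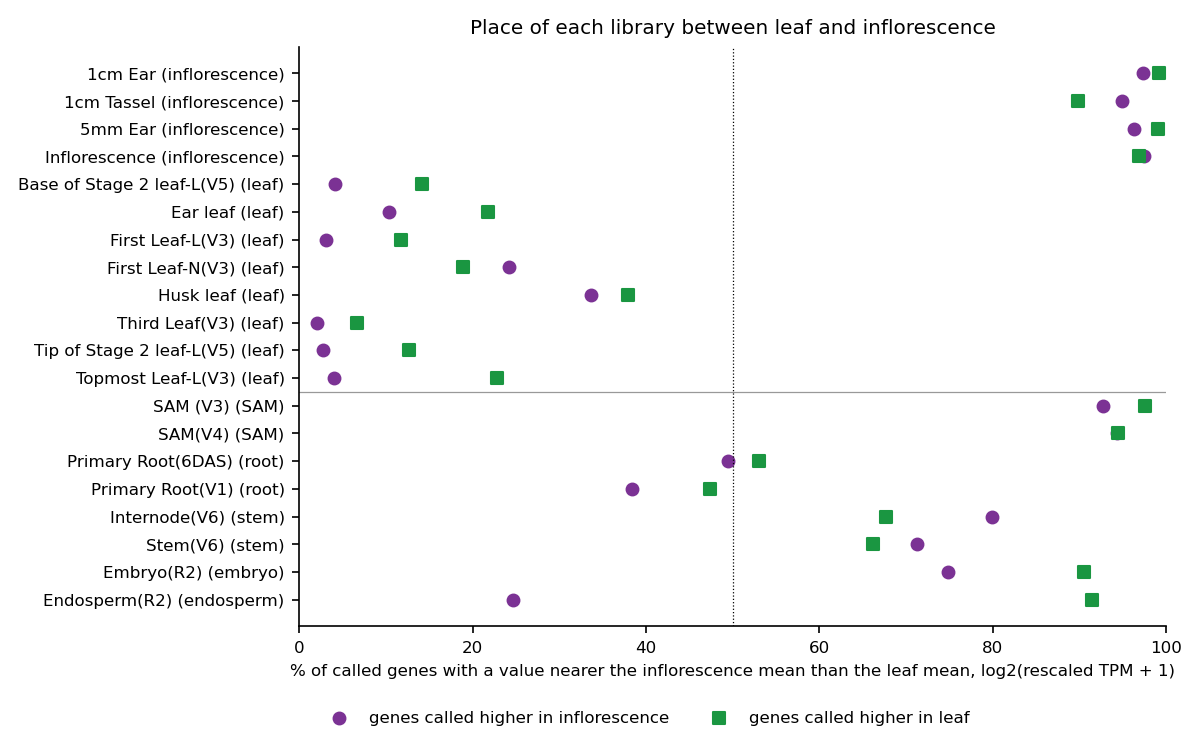
For each library, points give the percent of inflorescence-high genes (circles) and leaf-high genes (squares) whose log2(rescaled TPM + 1) was nearer to the inflorescence mean than to the leaf mean. Above the grey line each library was left out of its own calls and means, below it the main calls were used, and the dotted line marks 50%. Among leaves the husk leaf lies highest (33.7% and 37.9%). The SAM libraries lie within the inflorescence range for leaf-high genes (97.5% and 94.5%) and just below it for inflorescence-high genes (92.8% and 94.4%).

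**Figure D5:**
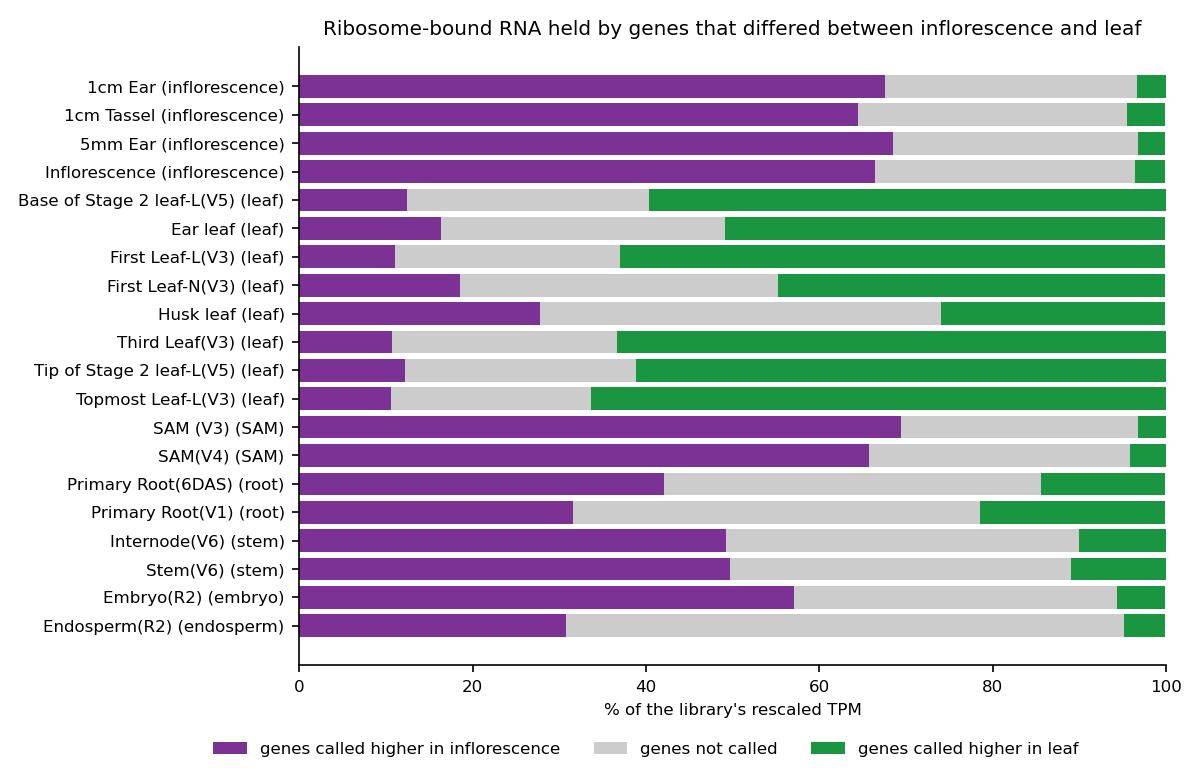
Bars split the rescaled TPM of each library into genes called higher in inflorescence, genes not called and genes called higher in leaf. Inflorescence-high genes hold 64.5% to 68.5% of inflorescence, 69.5% and 65.8% of the SAM, 57.1% of the embryo, 49.2% and 49.7% of the internode and stem, 42.1% and 31.6% of root, 30.8% of the endosperm and 10.6% to 27.7% of leaf libraries.

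The 336 genes with at least 10 TPM in every inflorescence library and under 1 TPM in every leaf were rarely restricted to inflorescence. SAM (V3) had at least 10 TPM for 311 of them and SAM(V4) for 319, and the embryo for 209. The internode carried 173 and the stem 164 at that level, the roots 87 and 35, and the endosperm 14. Only 13 of the 336 stayed under 10 TPM in all 8 libraries of other organs. Of the 72 genes with the opposite pattern, the SAM libraries carried 0 and 1 at that level, the roots 21 and 28, and the internode and stem 8 and 10, and 37 stayed under 10 TPM in all 8 libraries.

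The inflorescence was next compared with the SAM, the organ class with the most similar libraries, to find what set it apart from the vegetative meristem. At the same thresholds limma called 212 genes (0.804%), 111 higher in inflorescence (0.421%) and 101 lower (0.383%), and the median of all genes was 0.02. The SAM had 2 libraries, and the number of calls depended on both. It was 97 without SAM (V3) and 71 without SAM(V4), where the remaining library was taken to vary like the other classes. It was also 123 with a pseudocount of 0.1 and 84 among genes with at least 5 TPM in 4 libraries. The comparison shares the inflorescence libraries with the comparison against leaf. Its p-values also used a spread estimated over all 20 libraries, so the less uniform leaf class entered them. Without the husk leaf 242 of 26193 genes tested were called.

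The 2 genes with the largest increase over the SAM were near 0 there. Zm00001d048082 had 291 TPM in the 1cm Ear, 101 TPM in the 5mm Ear, 148 TPM in the 1cm Tassel and 796 TPM in the library labelled Inflorescence, and 0.43 and 0.20 TPM in the SAM libraries. The ranges were far apart, with a log2 fold change of 7.54 (SE 0.851, limma adjusted p = 0.000127). In leaf it was listed at 0 in 7 libraries and had 8.08 TPM in the husk leaf, and the log2 fold change against leaf was 7.53 (SE 0.602, limma adjusted p = 3.24e-08). In total RNA it had 12.6 to 90.7 TPM in the same inflorescence tissues but 0 to 0.1 TPM in the 2mm Ear and the 2mm Tassel, which have no ribosome-bound library here.

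Zm00001d018667 had 255 TPM in the 1cm Ear, 242 TPM in the 5mm Ear, 126 TPM in the 1cm Tassel and 108 TPM in the library labelled Inflorescence, and 0.15 and 0.19 TPM in the SAM. The log2 fold change over the SAM was 7.19 (SE 1.51, limma adjusted p = 0.0294), and it missed the threshold without either SAM library (adjusted p = 0.304 and 0.355), without each inflorescence library other than the tassel (0.0504 to 0.0818) and with a pseudocount of 0.1 (0.125). The husk leaf, at 147 TPM, lay inside the inflorescence range, while the other leaves had at most 2.97 TPM. Without the husk leaf the adjusted p against the SAM was 1.67e-06.

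In the opposite direction, Zm00001d025873 was listed at 0 in 3 inflorescence libraries and all 8 leaves, and had 0.53 TPM in the 5mm Ear. It had 33.5 and 109 TPM in the SAM, 53.5 and 7.30 TPM in root and 4.03 and 0.48 TPM in the internode and stem, and the log2 fold change against the SAM was -5.79 (SE 0.603, limma adjusted p = 5.62e-05). This value was -6.62 without SAM (V3) and -4.95 without SAM(V4). Zm00001d014032 had at most 0.81 TPM in inflorescence and 41.6 and 80.5 TPM in the SAM, with a log2 fold change of -5.60 (SE 0.741, limma adjusted p = 0.000679). The internode and stem had levels near those of the SAM, 80.1 and 65.1 TPM, and the leaves had at most 5.63 TPM. In total RNA of the 2mm Ear and the 2mm Tassel Zm00001d025873 was at 1.37 to 34.0 TPM and Zm00001d014032 at 0.13 to 11.5 TPM, against at most 0.6 and 0.64 TPM in the 4 inflorescence tissues compared here.

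Leaf was also set against the vegetative organs that are not leaves, as the mean of the SAM, root and stem classes, a contrast without inflorescence libraries that shares the leaf libraries with the main comparison. It called 11694 genes (44.4%), of which 3350 were higher in leaf (12.7%) and 8344 lower (31.7%), and the median gene was -0.52. The split again moved with the scaling, to 4634 higher and 5501 lower after quantile normalization, 4270 and 6037 after upper quartile scaling, and 2159 and 12459 with Zm00001d019605 kept. Without the husk leaf 3478 genes were higher and 9028 lower.

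The largest increases in this contrast were again in Zm00001d023516, with a log2 fold change of 10.75 (SE 1.68, limma adjusted p = 4.84e-05, and 12.32 without the husk leaf), and in Zm00001d046170. The latter ran in leaf from 32.1 TPM in the husk leaf and 561 TPM in the first leaf with the letter N through a median of 4829 TPM to 8722 TPM in the topmost leaf. It had at most 3.77 TPM in the SAM, root and stem libraries and at most 0.95 TPM in inflorescence. Its log2 fold change was 9.96 (SE 1.04, limma adjusted p = 7.55e-07), or 10.83 without the husk leaf. The largest decreases were in Zm00001d030698, at -8.63 (SE 0.387, limma adjusted p = 7.59e-11), and in Zm00001d027539. The latter had at most 0.746 TPM in any leaf, 105 and 132 TPM in the SAM, 154 and 103 TPM in root, and 652 and 813 TPM in the internode and stem. Its log2 fold change was -7.61 (SE 0.338, limma adjusted p = 7.09e-11). In inflorescence it had 56.7 TPM in the 1cm Ear, 47.7 TPM in the 5mm Ear and 41.7 TPM in the library labelled Inflorescence, and stood out in the 1cm Tassel at 266 TPM.

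Total RNA of the same 12 tissues gave a readout from other libraries. It listed 24225 of the genes tested, and these summed to 105659 TPM in the 1cm Tassel and up to 225503 TPM in the first leaf with the letter L, so total levels below are on an incomplete scale. For all listed genes, 6503 (26.8%) had total RNA levels that were higher in every inflorescence tissue than in every leaf and 2269 (9.37%) that were lower. Of the inflorescence-high genes of ribosome-bound RNA, 5440 of 8205 listed (66.3%) had separate total RNA ranges in the same direction and 1 in the opposite direction. Of the leaf-high genes, 2064 of 4073 listed (50.7%) did so in the same direction and 5 in the opposite direction. Genes that were not called had separate ranges in 8.86% and 1.71% of cases. When the listed genes of each total RNA library were rescaled to the same sum, the counts in the same direction became 6947 and 2046. Over all listed genes they became 9381 (38.7%) and 2263 (9.34%), and 20.3% of the genes not called were then higher, so the background rose as well. No test was made on these counts.

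Some ribosome-bound RNAs were listed at 0 in the total RNA of all 12 tissues, 993 of 24225 genes tested and listed (4.10%) and 859 of 11947 genes not called (7.19%). Of the leaf-high genes, 55 of 4073 (1.35%) were among them and held 0.119% to 12.8% of the ribosome-bound TPM of leaf libraries. The highest share was mostly 1 gene, the Zm00001d038493 described above, and the other 54 held 0.111% to 2.58%. Of the inflorescence-high genes, 79 of 8205 (0.963%) were at 0 in the same way, and they held at most 0.223% of inflorescence TPM. Zm00001d019605 and Zm00001d040260 are not among the genes listed in the total RNA table used here.

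Total RNA tissues without a ribosome-bound library extended the comparison to smaller inflorescences. The 2mm Ear and the 2mm Tassel were set against the base and the tip of the stage 2 leaf and the topmost leaf, all with the letter N. Of all listed genes, 11927 (49.2%) were higher in both inflorescences than in the 3 leaves and 3643 (15%) lower. Among inflorescence-high genes 7495 of 8205 (91.3%) were higher and 9 lower, and among leaf-high genes 2637 of 4073 (64.7%) were lower and 83 higher. Of the genes not called, 36.4% were higher and 8.35% lower. Ranges of 2 and 3 tissues separate more easily than those of 4 and 8, so these shares cannot be set against those of the 12 tissues. The levels were not rescaled, and the genes tested summed to 143920 TPM in the 2mm Ear and 314113 TPM in the 2mm Tassel.

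The called genes were also described by a list of protein pairs from the same series and by the form of their identifiers. The list of protein pairs that the authors deposited, which gives partners without a score, held 8124 of 8975 inflorescence-high genes (90.5%) and 3412 of 4435 leaf-high genes (76.9%), against 81.2% of all genes tested. The median number of partners was 12 for inflorescence-high genes in the list, 6 for leaf-high genes and 9 for all genes tested. Partner numbers rose with abundance, so they were also set side by side by level. At 100 to 1000 TPM in the higher organ the medians were 45 partners for inflorescence-high, 14 for leaf-high and 52 for genes not called, and at 10 to 100 TPM they were 12, 6 and 15. At both levels the leaf-high genes had the fewest partners. The share of genes in the list rose with abundance too. At 10 to 100 TPM it was 95.8% for inflorescence-high, 81.6% for leaf-high and 96.6% for genes not called. At 100 to 1000 TPM it was 99.1%, 94.1% and 99.2%. The inflorescence-high genes were thus not in the list more often than uncalled genes at these levels, but they were at the remaining ones. At 1 to 10 TPM the shares were 74.7% for inflorescence-high, 58.5% for leaf-high and 71.5% for genes not called. At 1000 TPM or more they were 100% of 65, 97.5% of 79 and 96.6% of 29 genes. Pairs share genes, and no test was made.

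Identifiers starting with GRMZM5G leaned to leaf. Of 130 tested, 45 (34.6%) were higher in leaf and 4 (3.08%) in inflorescence, against 16.8% and 34.1% of all genes tested. All 174 together held 0.169% ± 0.0700 of inflorescence TPM (SD, n = 4) and 0.567% ± 0.306 of leaf TPM (SD, n = 8), with ranges of 0.110% to 0.270% and 0.323% to 1.08%. Genes with identifiers starting with Zm00001d that are not in the total RNA table, 2038 of them tested, were higher in inflorescence in 37.6% and in leaf in 15.9%. These shares were close to those of all genes tested. All such genes held 11.3% to 12.0% of inflorescence TPM and 7.02% to 10.3% of leaf TPM.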

How the data were processed

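RNA bound by ribosomes was deposited by the authors as TPM per gene identifier, 1 column per tissue, and total RNA likewise as TPM. Per the submitters' processing notes the build was B73 RefGen_v4 and the tools included cutadapt 1.9.1, SAMtools 1.9, RSEM, Bowtie 1.1.2, StringTie and HISAT, without a stated role. The isolation of ribosome-bound RNA is not given in the sources. Deposited ribosome-bound TPM summed to 999999 to 1000001 per library. Zm00001d019605 was left out and each library rescaled to 1000000. This removes the drop that 1 gene with up to 62.5% of a library imposes on the rest. A single line of the total RNA table held 2 records and was split. A list of protein pairs, deposited by the authors without scores, was used for partner numbers.

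Genes with at least 1 rescaled TPM in at least 2 of 20 libraries were tested on log2(rescaled TPM + 1) with limma 3.58.1 (R 4.3.3, mean-variance trend), in 1 fit with organ class as the factor (4 inflorescence and 8 leaf libraries, 2 each of SAM, stem and root, 1 each of endosperm and embryo). A gene was called when its p, adjusted by Benjamini-Hochberg, was under 0.05 and its log2 fold change was at least 1 in size. The fit was tested on simulated data. The 3 library measures were tested by exact permutation, two-sided (scipy 1.17.1). Alternatives were a pseudocount of 0.1, other filters, the deposited scale, quantile and upper quartile scaling, the 12 libraries alone, no trend, and leaving out libraries. TPM keep no depth, so no counting interval is given.

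None of the 35 gene lists could be measured, because 0 of 39498 identifiers matched the 49888 genes of the reference table, whose assembly is another (NAM-5.0). Genes were therefore named by rule, 2 per direction: the largest fold changes with separate ranges and at least 10 TPM in the higher group, the most abundant called genes, the extremes of each other comparison with the same minimum, and Zm00001d019605. A gene that met several of these appears under each. The libraries compared and the lists were chosen with earlier results of these data known. Small RNA, circRNA and cDNA pool samples were not used here.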

Additional observations from a re-analysis of the deposited data

Results flagged for a closer look

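Values were looked at in 32 sets (3 library measures and 13 genes, in each organ class). In 6 of them a single library lay far from the others of its class by Dixon's criterion on the plotted scale. Chance meets this criterion in about 1 of 20 sets of normally distributed values. That rate cannot be set against the 6 here, because the genes were chosen for extreme values and several sets were mostly zeros. On log2(rescaled TPM + 1), the first leaf with the letter N stood at 1.83 for Zm00001d040260, with the other 7 leaves at 0. The husk leaf stood apart for 3 genes. It was at 2.05 for Zm00001d023516, with the next leaf at 12.55, at 3.18 for Zm00001d048082, with the other leaves at 0, and at 7.21 for Zm00001d018667, with the next leaf at 1.99. The 5mm Ear was at 0.614 for Zm00001d025873, with the other 3 inflorescence libraries at 0. The 1cm Tassel was at 8.06 for Zm00001d027539, with the next inflorescence library at 5.85. The values of the first leaf and the 5mm Ear were low levels beside zeros. The cause of the husk leaf and tassel values was not tested.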

How the results depend on the processing

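The counts of the comparison with leaf (11646 to 14936 genes over all alternatives) and of leaf against the SAM, root and stem (9985 to 14618 genes) stayed within 1.5 times the reported counts. So did the count of separate ranges without the husk leaf (12091 against 10684), although leaving out a library can only keep or raise it. That alternative was chosen after seeing the data, as was the rescaling of total RNA (8993 called genes with separate total RNA ranges in the same direction, against 7504). For inflorescence against the SAM the count of 212 was 123 with a pseudocount of 0.1 and 84 with at least 5 TPM in 4 libraries, and ranged from 71 to 307 when 1 library was left out. The difference in genes with at least 1 TPM ranged from 838.3 to 1203 when 1 library was left out. It missed the threshold without the 1cm Ear, the 1cm Tassel or the library labelled Inflorescence, where fewer samples entered. The other library measures kept their direction and side of the threshold in all alternatives. Of 412 values of named genes under alternatives, 406 kept direction and call, 6 lost the call, all for Zm00001d018667 against the SAM, and 0 changed sign. Their log2 fold changes moved by at most 2.96 with a pseudocount of 0.1, 1.35 after quantile normalization, 0.82 on the deposited scale and 0.52 after upper quartile scaling. No paired analysis was possible because the labels give these libraries no replicate numbers, and the numbers used to name them follow accession order. Precision is limited by 1 pooled library per tissue, and the depth behind low TPM is unknown.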
